A study of Caenorhabditis elegans with 7 samples.

Results

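The baseline described here is the transcriptome of unselected wild-type (WT) Caenorhabditis elegans at the fourth larval stage (L4), measured by RNAseq in 3 of the 7 libraries of the series. The 3 libraries were chosen by their label, which gives no selection, and every gene of the table was described, 46778 in all. Each library was made from whole animals of N2, the standard laboratory wild-type strain, and is labelled as a separate biological replicate. The animals were synchronized as L1 larvae, grown on NGM plates with streptomycin and concentrated OP50 bacteria, and collected at L4. The other 4 libraries came from animals of a population propagated from late progeny and were not used. Selection, genotype and food were the same in all 3 libraries, so no groups were compared and no test was run. RNA of a whole animal mixes all tissues, and in it fewer cells of a type and less RNA per cell cannot be told apart.

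L4 is the last larval stage before the adult. The epidermis builds the adult cuticle beneath the larval one, which is shed at the final molt, and the cuticle is made mainly of collagens that are each encoded by their own short gene. In the hermaphrodite germline, sperm are made first, during L4, before the switch to oocytes, and the intestine begins to make yolk proteins around the passage to adulthood.

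Levels are given in FPKM, in which the reads of a gene are divided by its length in kilobases and by the library size. Where a gene is given with 3 values, they belong to WT replicates 1, 2 and 3 in that order. The reads on genes numbered 19484976 in WT replicate 1, 19719809 in replicate 2 and 20423033 in replicate 3, and between 15723 and 16297 genes had at least 1 read. At FPKM 1, a gene of 1 kilobase had 18.03 reads in replicate 1, 22.5 in replicate 2 and 23.9 in replicate 3. A count of 0 allowed, for a gene of that length, up to 0.166, 0.133 and 0.125 FPKM in the same order (3 reads per library, counting error only). Reads on genes were thus close in number among the libraries, while the reads behind a given FPKM were fewest in replicate 1: the median reads of an expressed gene were 187, 268 and 251. Each library was highest in an unequal part of the expressed protein-coding genes, 33.3% for replicate 1, 42.7% for replicate 2 and 24.003% for replicate 3, against which counts of genes highest in a library are to be read. The libraries stood apart in ways that touch the values below. Replicate 1 had higher values than the others for short genes and lower values for long ones, and its summed FPKM was 1233736, against 913736 in replicate 2 and 876840 in replicate 3. Replicate 2 had higher values for genes of the germline and of molting, and a different balance among the collagens. Both features are given in numbers further on, and each main result is also given without each library.

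A gene was counted as expressed at an FPKM of at least 1 in all 3 libraries, which held for 10234 genes, or 21.9% of those listed. Protein-coding genes made up 10082 of them, 49.9% of the 20222 listed. Counts of expressed genes in a family or marker list are to be read against this share. A further 2414 genes reached FPKM 1 in some but not all libraries, and 3762 protein-coding genes had no read in any. Among expressed genes the median of the mean FPKM was 7.56. An FPKM of at least 10 in all 3 libraries was reached by 3564 genes, at least 100 by 758, and at least 1000 by 160. Just inside the limit lay F41G3.10, whose lowest library was at 1.00, and just outside it Y67D2.4, at 2.03, 2.39 and 0.999 FPKM. With 1 library left out, between 10586 and 10650 genes were expressed in the remaining pair.

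The signal was concentrated in few genes. The 100 highest genes of each library took 53.5%, 51.6% and 48.6% of summed FPKM in replicates 1 to 3, or 51.2% ± 2.48 (SD, n = 3). In replicate 1, 88 genes made up 50% of the summed FPKM, in replicate 2 94 and in replicate 3 107. To reach 90%, 1058 genes were needed in replicate 1, 1487 in replicate 2 and 1431 in replicate 3. The library that was most concentrated at the top was the one with the highest values for short genes.

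**Figure D1:**
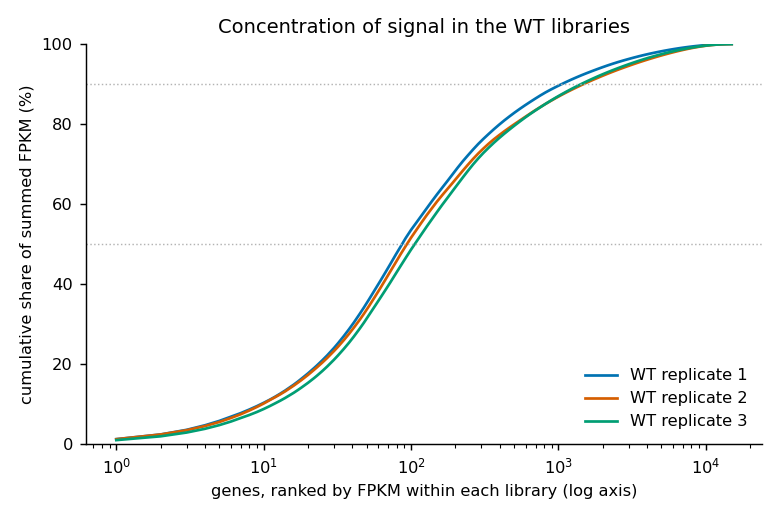
Cumulative share of summed FPKM (%, y axis) against the number of genes ranked by FPKM within each library (x axis, log scale), 1 line per WT library, with dotted lines at 50 and 90%. All 3 lines pass 50% between 88 and 107 genes, and replicate 1 reaches 90% with the fewest genes, 1058.

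Genes of the translation machinery headed the ranking. The highest mean belonged to rps-9, which encodes a protein of the small ribosomal subunit and lies on chromosome II, bases 11125371 to 11126362 on the minus strand as deposited, with 3 exons; the build of the coordinates is not stated. Its FPKM was 14221 in replicate 1, 11150 in replicate 2 and 7785 in replicate 3, or 11052 ± 3220 (SD, n = 3). Next came rla-0, the stalk protein P0 of the large subunit, at 13396, 10818 and 8761 FPKM (chromosome I, bases 10567894 to 10569019). The order of these genes was not the same in every library, since rps-9 was above rla-0 in replicates 1 and 2 and below it in replicate 3. In all 3 libraries rla-0 was above rla-1, which had 13066, 9546 and 8181 FPKM. The means of rps-9, rla-0, rps-23, rpl-10 and rla-1 lay between 10264 and 11052 FPKM with SDs between 2322 and 3956. These SDs include a shift that the genes share, with replicate 1 highest in each of them, so they do not measure the error of the order. The third of the ranking, Y37E3.8, has no description in the table and stood at 14435, 9767 and 8259 FPKM.

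The 81 genes named for cytosolic ribosomal proteins took 41.2% of summed FPKM in replicate 1, 39.1% in replicate 2 and 36.3% in replicate 3, or 38.9% ± 2.45 (SD, n = 3). The share was 37.7% without replicate 1, 38.8% without replicate 2 and 40.1% without replicate 3. Counted as reads, with no division by length, it was 26.7% ± 2.90, since the median length of these genes is 543 bases. All but 1 of them were expressed, and their median was 4982 FPKM. The exception was rpl-42, at 2.81, 3.18 and 0.584 FPKM. Members that lay far below the rest also included rpl-37, at 37.4, 37.6 and 19.8 FPKM, and rpl-41.1, at 486, 223 and 198 FPKM. Beside rpl-37 the table lists W01D2.1, described as ribosomal protein L37, at 4501, 3108 and 2487 FPKM, so the family name alone does not hold all ribosomal genes. With genes found by their description added, 88 genes took 40.6% ± 2.59. In 79 of the 80 expressed ribosomal genes replicate 1 was highest, against 33.3% of all expressed protein-coding genes. Among genes at FPKM of at least 10 in all libraries it was highest in 51.4%. After the trend with gene length was removed, the median deviation of the ribosomal genes was 0.05, 0.04 and -0.07 on the log2 scale in replicates 1 to 3.

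Factors that work with the ribosome were also high. Elongation factor 1-alpha, eef-1A.1, which brings aminoacyl-tRNA to the ribosome, ranked 7 with 9598, 8493 and 8081 FPKM, or 8724 ± 785. Its relative spread was smaller than that of rps-9. Elongation factor 2, eef-2, which moves the ribosome along the message, stood at 1903, 1856 and 1815 FPKM. All 30 genes named for translation factors were expressed, and together they took 1.90% ± 0.123 of summed FPKM.

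Outside the ribosome, the highest genes had varied roles. F41F3.3, which has no description in the table, had 7494, 5918 and 4806 FPKM. The gene rack-1, for a scaffold protein that binds the ribosome, had 6166, 5055 and 4256, and ndk-1, for a nucleoside diphosphate kinase, 5241, 4661 and 3380. The fatty acid and retinol binding protein gene far-2 had 8261, 4888 and 6488 FPKM, and its neighbour in name far-1 had 3884, 2043 and 2954. The mitochondrial ATP synthase subunit encoded by Y82E9BR.3 had 6902, 4512 and 5110 FPKM. The nucleotide carrier ant-1.1, which exchanges ADP and ATP across the inner mitochondrial membrane, had 5100, 3443 and 4034. In each of the last 4 of these genes replicate 1 was highest and replicate 2 lowest. The aspartic protease asp-1, an intestinal enzyme of protein digestion, had 5884, 4476 and 5682 FPKM and is listed with a single exon on chromosome V. Together with asp-6, asp-5, cpl-1 and other cathepsin-like proteases, 28 genes in all, it took 1.31% ± 0.182 of summed FPKM, and 20 of the 28 were expressed.

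**Figure D2:**
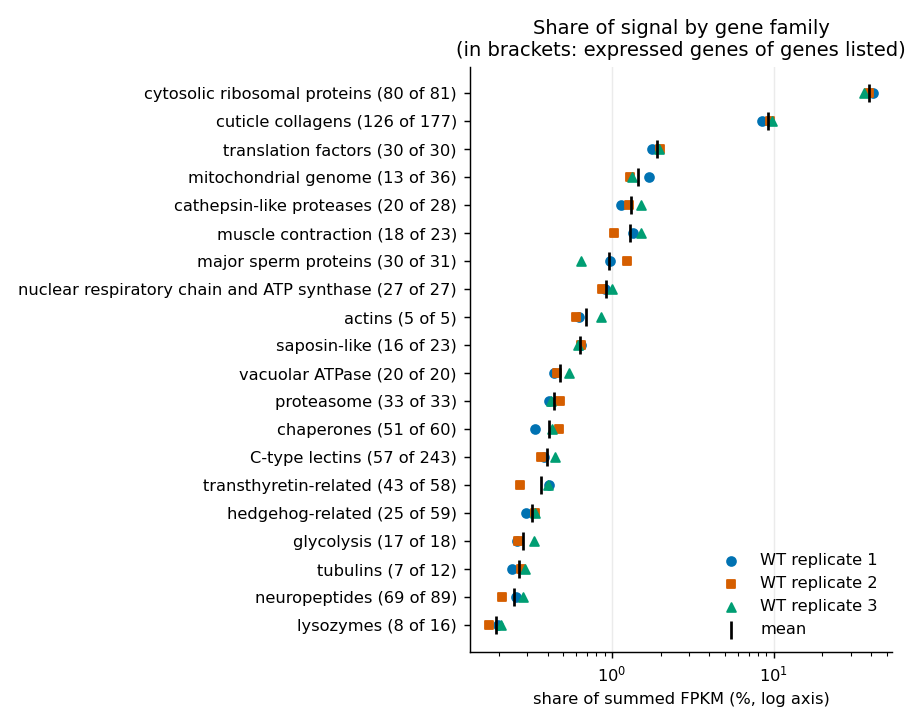
Share of summed FPKM (%, x axis, log scale) of the 20 gene families with the highest shares, with a symbol for each WT library and a black bar for the mean; brackets give expressed genes of genes listed. Ribosomal proteins stand at 38.9% and collagens at 9.22% on average, and every other family lies under 2%.

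The mitochondrial genome gave 1.70%, 1.30% and 1.32% of summed FPKM. Its cytochrome oxidase subunit gene ctc-2 had 4251, 2469 and 2394 FPKM, and atp-6, a subunit of ATP synthase, had 3819, 2101 and 2212. Of its 12 protein-coding genes 11 were expressed, and replicate 1 was highest in all 11, against 33.3% of all expressed protein-coding genes. Among genes at FPKM of at least 10 in all libraries, replicate 1 was highest in 51.4%. Nuclear genes named for the respiratory chain and ATP synthase, 27 of 27 expressed, took 0.921% ± 0.0715. This set was made by gene name and leaves out Y82E9BR.3, the nuclear ATP synthase gene given above, whose mean was 5508 FPKM. The highest gene of the named set, atp-2, the beta subunit of ATP synthase, was nearly level at 1676, 1474 and 1661 FPKM.

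Cuticle collagens were the second family, at 8.42%, 9.52% and 9.72% of summed FPKM, or 9.22% ± 0.6997 (SD, n = 3). Their share of reads was close to this, 9.92% ± 0.219, since their median length is 1016 bases. Of 177 genes, 126 were expressed and 13 had no read. The highest was bli-6, a collagen known from mutants with a blistered cuticle, at 5083, 4431 and 2605 FPKM (chromosome IV, bases 6377065 to 6378195, 2 exons). It was followed by col-77 with 3595, 2953 and 2389 FPKM and col-125 with 3169, 2951 and 2556. Not all collagen groups were high. The 6 furrow collagens, which form the circumferential furrows and are made early in each molting cycle, summed to 24.3, 26.1 and 21.1 FPKM, and dpy-7 had 6.02, 4.89 and 4.67. By its mean dpy-7 was nearly level with dpy-9, at 4.93, 6.31 and 4.301. Of these, dpy-10 missed the limit in replicate 2, at 0.925 FPKM.

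Genes of muscle and cytoskeleton followed. The 23 genes of muscle contraction took 1.29% ± 0.242 of summed FPKM. Their highest member was pat-10, the troponin C of body wall muscle, at 3892, 2300 and 3444 FPKM, and the myosin light chain genes mlc-2 and mlc-1 had means of 2893 and 1350 FPKM. The long myosin heavy chain gene unc-54, main myosin of body wall muscle, had 108, 164 and 155 FPKM. Here replicate 1 was the lowest, whereas for the short pat-10 it was the highest. Actins took 0.694% ± 0.143, led by act-4 at 2370, 1995 and 2574 FPKM and by the intestinal actin act-5 at 2081, 1144 and 2104. The actin genes are nearly identical in sequence, as are many major sperm protein genes, so how the reads were divided among such copies is uncertain.

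Major sperm proteins, the cytoskeletal proteins that drive crawling of nematode sperm, took 0.974%, 1.24% and 0.643% of summed FPKM. Of 31 genes 30 were expressed, and replicate 3 was highest in 0 of them, against 24.003% of all expressed protein-coding genes. These genes are short, with a median of 455 bases, and replicate 3 was low for short genes in general. After the trend with gene length was removed, their median deviation was -0.06, 0.48 and -0.37 on the log2 scale in replicates 1 to 3. The highest, msp-31, had 1233, 1084 and 510 FPKM. Of 6 sperm markers outside this family 3 were expressed, near the 49.9% of all protein-coding genes. Among these, gsp-3, a sperm phosphatase, had 73.2, 77.4 and 46.4 FPKM and gsp-4 43.1, 50.1 and 25.1. Others of the list were low, with fer-1, needed for fusion of sperm vesicles, at 0.11, 0.70 and 0.12 FPKM.

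Vitellogenins, the yolk proteins made by the intestine for oocytes, were expressed in all libraries but at unequal levels. The highest, vit-6, had 522, 371 and 1011 FPKM (chromosome IV, bases 8261134 to 8266462). The 6 genes together took 0.104%, 0.0925% and 0.275% of summed FPKM. In each of the 6 replicate 3 was highest, against 24.003% of all expressed protein-coding genes. Replicate 2 was lowest in each, against 29.6% of those genes. The mean share of summed FPKM was 0.157%, and 0.0983% without replicate 3. Their median coefficient of variation (CV, the SD divided by the mean) was 0.518, against 0.271 over all expressed genes. Because these genes are long, with a median of 4936 bases, their share of reads was larger, at 0.594%, 0.484% and 1.41%. Its mean was 0.830%, and 0.539% without replicate 3. Oocyte and eggshell genes, 9 of 10 expressed, did not show that order: the yolk receptor gene rme-2 had 11.6, 12.3 and 8.92 FPKM, and the RNA-binding oocyte gene oma-1 had 6.53, 8.70 and 4.61.

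Defining markers of most tissues were expressed, but not of all. Of the pharyngeal muscle markers 3 of 5 reached FPKM 1 in all libraries. Of those of coelomocytes, the scavenger cells of the body cavity, 1 of 3 did. Among all protein-coding genes the share was 49.9%, and these lists are short. All 7 intestine markers were expressed, with summed levels of 2632, 1550 and 2710 FPKM. Most of each sum was act-5, given above, and elt-2, the GATA factor of the intestine, stood at 8.98, 10.1 and 14.5. All 6 body wall muscle markers, all 6 epidermis markers and all 8 germline markers were expressed. Of 9 neuron markers 8 were expressed, from snb-1, synaptobrevin of synaptic vesicles, at 173, 132 and 133.9 FPKM to snt-1, synaptotagmin, at 1.66, 1.17 and 2.33. Genes of single transmitter classes were low, with 2 of 8 expressed, and tph-1, the serotonin-synthesis enzyme of a few neurons, at 0.00, 0.12 and 0.04 FPKM.

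Markers of the early zygote and of male-specific neurons were at or near 0. Of the early zygote genes, end-3, med-1 and pes-10 had no read, and end-1 had 0.23, 0.54 and 0.00 FPKM. Of the male genes, lov-1 had no read, and pkd-2 and cwp-1 had reads only in replicate 3, at 0.02 and 0.22 FPKM. These levels lie near those of a few reads.

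**Figure D3:**
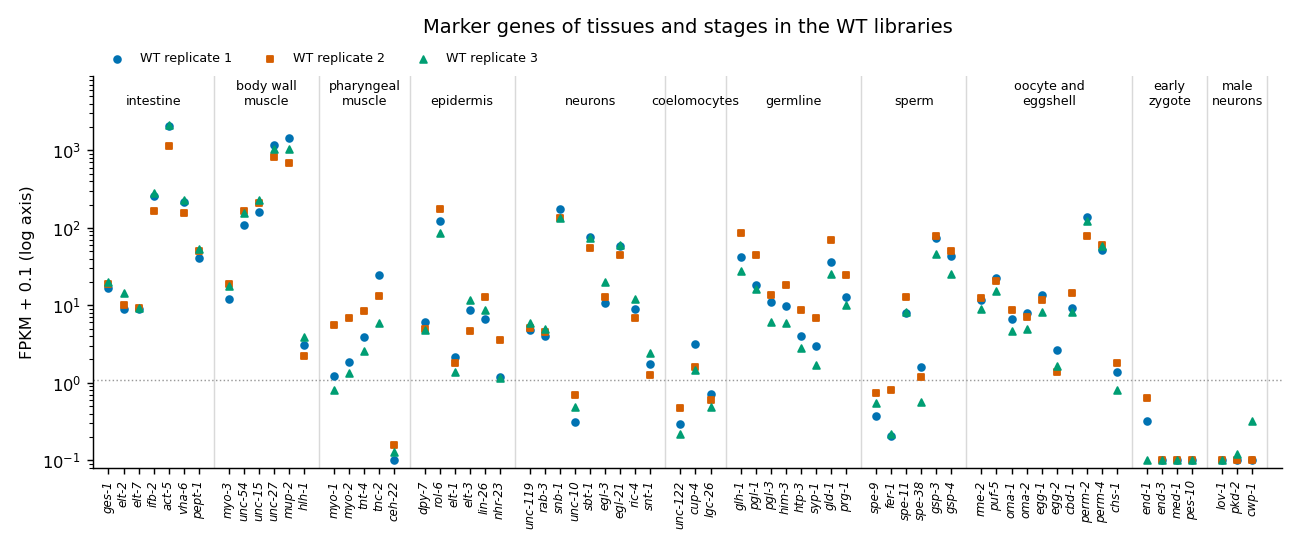
FPKM plus 0.1 (y axis, log scale) of each marker gene in the 3 WT libraries, grouped by tissue or stage, with a dotted line at FPKM 1. Markers of intestine, muscle, epidermis, neurons and germline lie mostly above the line, those of the early zygote and of male neurons at or near the bottom, and the germline markers are highest in replicate 2 for all 8 genes.

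Genes that time larval development were present at modest levels. Of 9 heterochronic genes, which order the stages of the larva, 8 were expressed. The period homologue lin-42, whose level cycles with the molts, had 21.3, 29.2 and 21.7 FPKM. The transcription factor gene lin-29, which acts in the passage from larva to adult, had 2.80, 2.85 and 3.63, and the early-stage gene hbl-1 had 0.20, 0.78 and 0.63. The collagen gene col-19, known as a marker of the adult cuticle, was high at 1228, 450 and 1073 FPKM (chromosome X, bases 421707 to 423033). In replicate 2 it was lower than in both other libraries.

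Some families were expressed almost whole and others hardly at all. Of 157 groups of at least 10 genes that share the letters of their name, 11 had every member expressed, 242 genes in all. They were rps and vha (ribosome and vacuolar proton pump), eif (translation initiation), mrpl and mrps (mitochondrial ribosome), rpn (proteasome), rpb (RNA polymerase II), mdt (Mediator), sec (secretion), dnj (J-domain chaperones) and acl (acyltransferases). In 20 groups, with 889 genes, no member was expressed. Most of these are chemoreceptors, among them srw with 112 genes, srbc with 70 and srz with 67, but acr (acetylcholine receptor subunits), frpr and dmsr (peptide receptor genes), dyf (cilia) and fbxb (F-box proteins, 106 genes) were among them too.

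Chemoreceptors, seven-pass receptors that are mostly made in a few sensory neurons, held 1329 genes, of which 8 were expressed and 997 had no read. The highest were srv-1, at 13.1, 7.27 and 15.7 FPKM, and srr-4, at 6.02, 6.32 and 5.54. Together the family took 0.00646% of summed FPKM. Genes with neuropeptide names were different, with 69 of 89 expressed. The family was set by name, and the tissue in which its members were expressed was not tested. The highest, nlp-24, had 521, 200 and 398 FPKM. The part detected thus differed widely between these families, from 0.602% of chemoreceptors to 77.5% of genes with neuropeptide names.

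Large regulatory families lay between these ends. Of 269 nuclear hormone receptors, ligand-regulated transcription factors, 93 were expressed at a median of 2.74 FPKM, led by nhr-97 at 18.1, 23.2 and 23.8 FPKM. In 70 of the 93 replicate 3 was highest, against 24.003% of all expressed protein-coding genes. Homeobox genes, which pattern the body, had 16 of 77 expressed, led by the posterior genes php-3 at 20.8, 11.7 and 28.6 FPKM and, after ceh-60, nob-1 at 11.3, 5.88 and 15.6. Of 39 insulin-like peptide genes 6 were expressed, led by ins-27 at 106, 72.1 and 52.4 FPKM. Among stress and defence genes, the heat shock protein gene hsp-70 and most small hsp-16 genes were among the lowest of the 60 chaperones, while hsp-1, the constitutive HSP70, had 715, 952 and 699 FPKM. C-type lectins had 57 of 243 expressed, with clec-63 at 1600, 1341 and 1362 FPKM, and saposin-like genes 16 of 23, with spp-17 at 2436, 2102 and 1466.

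**Figure D4:**
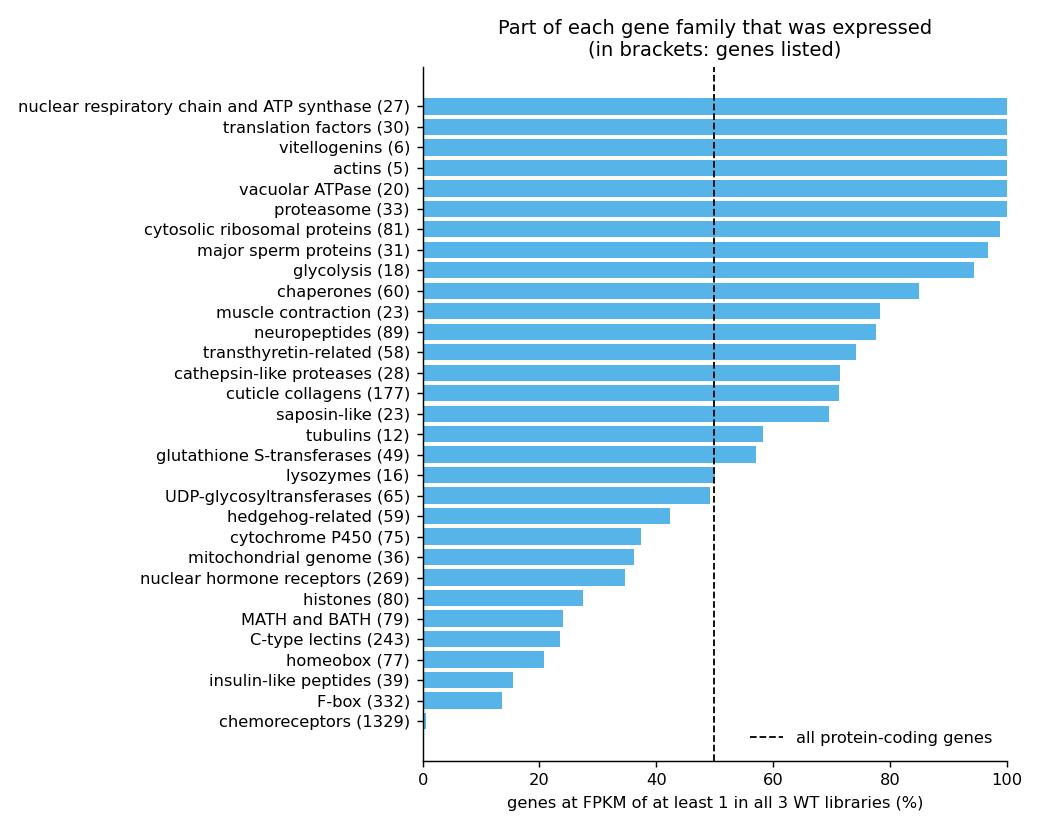
Share of each family's genes at FPKM of at least 1 in all 3 WT libraries (%, x axis), with the number of genes listed in brackets and a dashed line at the 49.9% of all protein-coding genes. Bars run from 0.602% for chemoreceptors to 100% for translation factors, proteasome, vacuolar ATPase, actins, vitellogenins and nuclear respiratory genes.

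Protein-coding genes took 98.3% ± 0.208 of summed FPKM and 95.8% ± 0.727 of the reads. Ribosomal RNA took 1.17% ± 0.197 of FPKM and 3.73% ± 0.716 of the reads, mostly on rrn-3.1, which had 10091, 9236 and 5826 FPKM. How ribosomal RNA was removed is not stated, and its copies in the genome are near identical. Of 634 tRNA genes and 130 snRNA genes, 0 were expressed. The highest RNA genes other than rRNA and pseudogenes were C28H8.14, at 335, 229 and 266 FPKM, and T05E11.9, at 254, 154 and 233. Of 152 expressed genes that are not protein-coding, 28 overlap a protein-coding model on either strand. The 4 expressed piRNA genes of 15364 listed all do, 3 on the opposite strand and 1 on the same strand. The 21-base 21ur-10296, at 34.3, 59.2 and 41.8 FPKM, lies on the same strand as eps-8, at a mean of 36.8, and the reads of these genes could not be told apart.

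Level went with gene structure. The 197 expressed protein-coding genes with a mean of at least 1000 FPKM held 64.8% ± 2.07 of the signal, had a median length of 748 bases and a median of 3 exons, and 79 of them were ribosomal genes by name or description and 37 collagen genes. The 5808 expressed genes with a mean under 10 FPKM held 2.66% ± 0.581, with a median length of 1465 bases and 6 exons. Protein-coding genes that were not expressed, 10140 in number, had a median length of 1011 bases and 5 exons, so the relation was not the same over the whole range. FPKM divides by length, and genes are not independent replicates, so this is a description.

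The chromosomes differed in the part of their protein-coding genes that was expressed. It was 65.9% on chromosome III, 62.3% on I, 54.04% on IV, 48.9% on II, 43.6% on X and 35.5% on V. Chromosome V holds 902 of the chemoreceptor genes. On each of the 6 nuclear chromosomes the share was higher in the middle of 3 equal stretches than in the outer ones, from 67.0% against 65.1% on chromosome III to 45.2% against 30.2% on V. The X took 7.39% ± 0.881 of summed FPKM, the least of the 6, and holds 2 of the 87 expressed ribosomal genes, where chromosome I holds 27. The median of expressed genes differed little, from 6.88 FPKM on X to 7.93 on III. Neighbouring genes on the same strand less than 500 bases apart, many of which belong to operons in this species, were both expressed in 47.4% of 3506 pairs, against 27.02% of 4745 pairs at 500 to 2000 bases.

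The 3 libraries agreed in rank but not in level. Spearman correlations across expressed genes were 0.908 for replicates 1 and 2, 0.930 for 1 and 3, and 0.908 for 2 and 3. Genes are not independent replicates, so these describe the libraries only. The median CV of an expressed gene was 0.271, while the reads alone would give a median of 0.0678. At an FPKM of at least 10 in all libraries the median CV was 0.218 and its counting part 0.0327, so most of the spread was not counting error. Of expressed genes 9.43% had a CV under 0.1 and 11.4% a CV over 0.5. Without replicate 1 the median CV was 0.205, without replicate 2 it was 0.203 and without replicate 3 it was 0.255. Each of these rests on 2 values per gene, for which the median CV is lower than for 3 values at equal spread. They are therefore not directly comparable with 0.271.

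The level in FPKM as deposited was most even for hphd-1, a hydroxyacid-oxoacid transhydrogenase, at 90.5, 90.3 and 90.2, among the genes at FPKM 10 or more. Evenness here holds for that scale only, since summed FPKM was 1233736, 913736 and 876840 in replicates 1 to 3. As a share of summed FPKM, a gene of equal FPKM was lowest in replicate 1. Citrate synthase, cts-1, which opens the tricarboxylic acid cycle, was also even at a higher level, with 532, 536 and 536. Further genes among the 10 most even were vps-20, of the ESCRT machinery, at 28.6, 28.3 and 28.5 FPKM, and mrpl-45, of the mitochondrial ribosome, at 13.24, 13.27 and 13.02. Of the genes often used as references in qPCR, cdc-42, a small GTPase, had 46.7, 49.4 and 50.8 FPKM. Others of that list were less even: ama-1, the large subunit of RNA polymerase II, had 9.41, 14.8 and 12.3 FPKM, and pmp-3, a peroxisomal membrane transporter, had 3.80, 7.25 and 5.77.

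Among genes with the largest CV at that level, 2 patterns stood out. In the first, replicate 2 was highest: Y51H7C.1 had 40.1, 146 and 16.8 FPKM, abu-14 38.01, 121.8 and 18.3, Y47G6A.15 191, 466 and 44.2, and cpr-1, a cysteine protease of the gut, 36.7, 103 and 20.1. In the second, replicate 1 was highest: nspd-1 had 650, 183 and 175 FPKM, T12B5.14 73.5, 16.2 and 19.6, and pud-1.2 78.0, 15.2 and 23.1. Genes of the second pattern are short, with 344, 375 and 483 bases. The 9 expressed nspd genes all had their highest value in replicate 1, against 33.3% of all expressed protein-coding genes. At FPKM of at least 10 in all libraries it was 51.4% of genes.

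Gene length separated the libraries across the whole transcriptome. The deviation of a library from a gene's mean was taken on the log2 of FPKM plus 0.5. For expressed protein-coding genes up to 600 bases its median was 0.45 in replicate 1, -0.19 in replicate 2 and -0.27 in replicate 3. For genes over 5000 bases it was -0.44, 0.40 and 0.08. With this trend removed, in 50 bins of length, the median SD among libraries went from 0.36 to 0.29 on the log2 scale. Families of short genes were unequal in this. Replicate 1 was highest in 33.3% of all expressed protein-coding genes and in 51.4% of genes at FPKM of at least 10 in all libraries. It was highest in 79 of 80 expressed ribosomal, 14 of 16 saposin-like and 39 of 43 transthyretin-related genes. For major sperm protein genes this was 18 of 30, for histone genes 11 of 22 and for neuropeptide genes 33 of 69. The part of length in any single gene's value was not tested.

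Replicate 2 stood out in the germline and molting lists, also after the trend with length was removed. All 8 germline markers were highest in replicate 2, against 42.7% of all expressed protein-coding genes. All 8 were also lowest in replicate 3, against 34.7% of those genes. The P granule helicase gene glh-1 had 41.4, 86.2 and 27.9 FPKM, pgl-1, of the same granules, 17.9, 44.8 and 16.1, and gld-1, an RNA-binding regulator of meiosis, 36.1, 68.6 and 25.2. The summed level of the list was 136, 271 and 95.4 FPKM, and its median deviation after removal of the trend was 0.05, 0.63 and -0.69. Of the 14 molting genes 10 were expressed, and 9 of the 10 were highest in replicate 2, against the same 42.7%. That share covers genes of all lengths, while the median length of the expressed molting genes was 2548 bases. After removal of the trend their median deviation was -0.34, 0.59 and -0.25 in replicates 1 to 3. The molting gene mlt-10 had 9.13, 44.9 and 8.09 FPKM, the patched-related ptr-4 3.43, 12.8 and 4.02, and qua-1, a hedgehog-related gene, 1.33, 7.59 and 2.78. The receptor gene nhr-23, needed for molting, had 1.08, 3.46 and 1.05, so the same library was highest again.

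Pharynx genes did so in part. The pharyngeal myosin genes had 1.14, 5.55 and 0.70 FPKM for myo-1 and 1.74, 6.76 and 1.23 for myo-2. The body wall myosin gene myo-3, of like length, had 11.97, 18.97 and 17.71. Not every pharynx marker was highest in replicate 2, since the troponin C gene tnc-2 had 24.3, 13.3 and 5.76 FPKM, and ceh-22, a homeobox regulator of the pharynx, lay at 0.06 or under in each library. Of the 14 abu genes, known in C. elegans for their activation when the unfolded protein response is blocked, 10 were expressed and 9 of these were highest in replicate 2, against 42.7% of all expressed protein-coding genes. The point within L4 at which each library was collected is not stated, and its part in these values was not tested.

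Collagens of nearly equal length were both higher and lower in replicate 2. Of 104 collagens at FPKM 10 or more in all libraries, 23 were at least 0.5 higher on the log2 scale in replicate 2 than the mean of the others, and 38 at least 0.5 lower. Median lengths of these sets were 1027 and 1026 bases. The sets were made from these values, so their levels are a description. For comparison, 597 other protein-coding genes had 900 to 1200 bases and FPKM 10 or more in all libraries. Of these, 9.21% were that much higher and 20.3% that much lower. The collagens had 22.1% and 36.5%, taken over all 104, of which 92 lie in that range of length. The higher set took 1.66%, 3.25% and 1.58% of summed FPKM and the lower set 3.07%, 2.06% and 4.24%.

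The higher set held 10 collagens, of 23, that are named after mutants of body shape or cuticle. The only other collagen so named among the 104 was bli-6, which was in neither set. In the higher set were sqt-3 at 389, 857 and 347 FPKM, dpy-13 at 1697, 2610 and 1203, dpy-5 at 2829, 3166 and 1633, and sqt-1 at 232, 464 and 181. The largest difference of the set was that of col-17, at 311, 707 and 226 FPKM. All 38 members of the lower set carry only a col number. In it were col-7 at 445, 62.3 and 409 FPKM, col-62 at 457, 71.5 and 388, col-147 at 386, 72.8 and 472, and col-19. For col-7 the difference was -2.77 on the log2 scale, the largest of all 104.

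**Figure D5:**
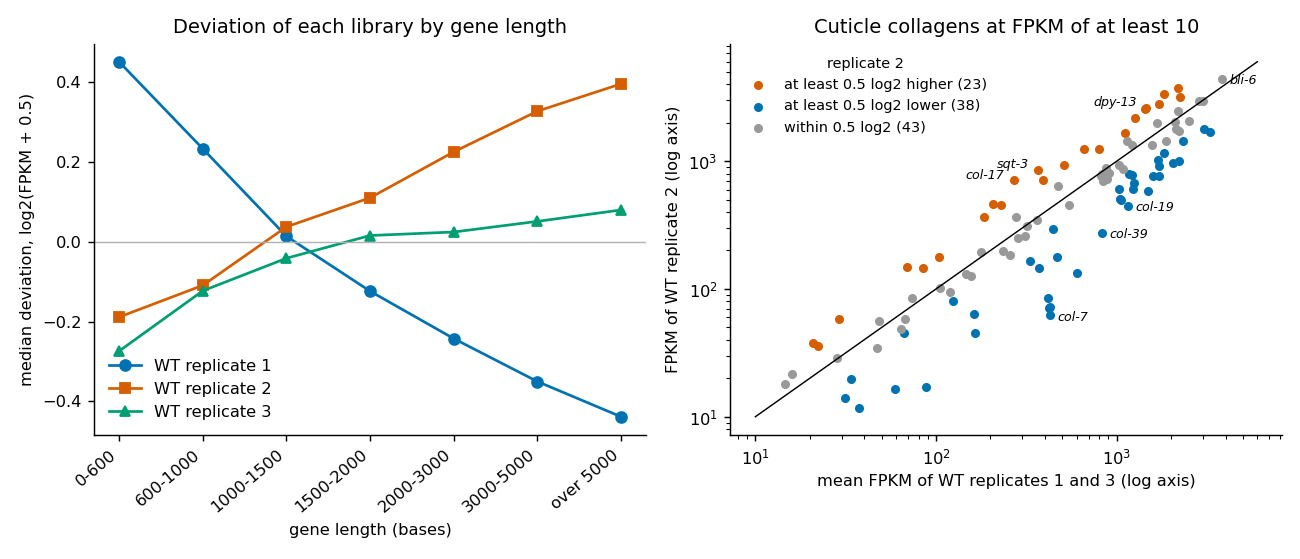
Left, median deviation of each WT library from the gene mean (log2 of FPKM + 0.5, y axis) in 7 classes of gene length (x axis, bases); replicate 1 goes from 0.45 to -0.44 and replicate 2 from -0.19 to 0.40. Right, FPKM of each of 104 collagens in replicate 2 (y axis) against the mean of replicates 1 and 3 (x axis), both on log scales, with a line of equality; 23 lie at least 0.5 log2 above it and 38 at least 0.5 below.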

How the data were processed

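The authors deposited FPKM for 46778 genes, from read counts reported by Novogene. Details not given in the sources used here include aligner, counter, versions, genome build and RNA selection. The 3 WT columns were used. The 4 WT Late columns and the sequences of promoters and proteins were not used here. FPKM multiplied by gene length was a whole multiple of 1 step per library for 100% of nonzero values (within 0.02), which gave the reads on genes. The library size behind FPKM was 0.925, 1.14 and 1.17 times these reads in replicates 1 to 3.

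Shares are of the FPKM summed over all genes. Families were set by gene name. Coordinates are as deposited, and exons come from Ensembl release 115 for WBcel235, which holds 46603 of the gene identifiers, 31984 with identical coordinates. The log2 scale used a pseudocount of 0.5, which understates differences of low genes. Computations used python 3.11.15, pandas 2.3.3 and numpy 2.4.6, and were tested on simulated data.

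Named genes were the 20 highest protein-coding genes, the 3 highest of each family with at least 0.5% of the signal, the 5 highest non-coding genes and genes with only a sequence name, the 10 of largest and smallest CV, and the marker lists. Other members named were chosen after their values were seen. Families, lists and rules were chosen with earlier results of these data known. Alternatives were other limits, scalings, denominators, pseudocounts, and each library left out.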

Additional observations from a re-analysis of the deposited data

How the results depend on the processing

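A limit of FPKM 5 in place of 1 left 5401 expressed genes. The other limits and scalings gave between 10093 and 11678, and leaving out 1 library gave 10586 to 10650. As a share of reads, ribosomal proteins took 26.7% and the 100 highest genes 43.2%. With 1 library left out these shares of FPKM were 37.7 to 40.1% and 50.1 to 52.5%, and that of collagens 8.97 to 9.62%. The median CV was 0.321 with each library rescaled to the same sum (TPM), 0.218 at FPKM 10 or more, 0.385 with no filter, and 0.216 with the length trend removed, an alternative added after seeing the data. It was 0.203 to 0.255 with 1 library left out, taken over the remaining pair only and so not directly comparable with the others. The cause of these moves was not tested beyond what each setting does. No paired analysis was possible because no groups were compared. A count of 0 allows a level of up to 3 reads, so genes under that level could be missed at this depth. FPKM depends on the gene length the provider used.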

Other observations

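Further families are given as values only. Of 80 histone genes 22 were expressed, and the highest were his-37, for histone H4, at 269, 157 and 175 FPKM in WT replicates 1 to 3, and his-72, for the replacement histone H3.3, at 184, 164 and 141.8. Of 12 tubulin genes 7 were expressed, led by tbb-2 at 880, 756 and 786 FPKM and tba-2 at 764, 697 and 637, with a median CV of 0.0912 for the family. Transthyretin-related genes had 43 of 58 expressed, led by ttr-16 at 1482, 629 and 973 FPKM. Hedgehog-related genes, many of which act in the epidermis and its cuticle, had 25 of 59 expressed. Among them grd-5 was highest in replicate 1, at 1643, 773 and 837 FPKM, and grl-16 in replicate 2, at 677, 1123 and 755.

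Of 5 vulva and anchor cell genes 3 were expressed, and of 4 gonadal sheath genes 3, against 49.9% of all protein-coding genes. The fibroblast growth factor gene egl-17, expressed in vulval cells, had 1.09, 1.09 and 1.02 FPKM, and the matrix protease gene zmp-1, known from the anchor cell and vulva, had 8.69, 3.09 and 4.95. The gonadal sheath innexin inx-8 had 3.69, 6.51 and 3.44 FPKM. Among lysozymes, which digest bacterial walls, lys-1 had 1192, 701 and 918 FPKM, while lys-7 had 14.5, 36.5 and 2.61, with replicate 2 highest and replicate 3 lowest.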
